A study of Saccharomyces cerevisiae with 32 samples.

Results

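The 81 genes described here encode the proteins of the large (60S) subunit of the cytosolic ribosome of Saccharomyces cerevisiae. They were chosen by symbol, as every gene named RPL followed by a digit plus RPP0, RPP1A, RPP1B, RPP2A and RPP2B, from 6477 genes in the gene table. Of the 81 genes, 79 had a probe on the RNA arrays, with 80 probes in all, and 74 had an intergenic region bordering their 5′ end on the chromatin immunoprecipitation (ChIP) arrays, with 76 regions in all. All 80 probes passed the filter on missing values, as 6772 of 7056 probes did over the whole table. Among the regions, 75 passed, covering 73 of the genes, against 6392 of 7047 regions in all.

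Heat shocked cells spent 15 min at 37 °C after warmed medium was poured in to equal the culture's volume, and mock treated cells stayed at 25 °C. Both came from cultures in YPD, a rich medium, at an optical density of about 0.8. RNA came from the strain labelled Null (BY4741) alone, on 2 arrays that set heat shocked against mock treated cells and 2 arrays that set mock treated cells against each other. ChIP samples came from strains carrying an HA epitope tag on TBP, TAF1, Spt3, Mot1 or Bdf1, and from the strain labelled Null, taken here as the background of the immunoprecipitation, with 4 arrays of heat shocked over mock treated DNA for each of the 6. ChIP cells were returned to 25 °C as they were cross-linked with 1% formaldehyde for 2 h, so the ChIP values describe cells fixed over that period. A last set of 4 arrays compared input DNA of the TAF1 strain with that of the Spt3 strain. The labels do not say that arrays of a group came from separate cultures, so p-values measure only the spread between these arrays, which may be technical. Each factor was followed in 1 tagged strain and RNA was measured in none of the tagged strains.

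Each ribosome carries one copy of almost every large subunit protein, and most of these proteins in yeast are made from a pair of duplicated genes, A and B. The genes are among the most strongly transcribed in growing cells. The factors Rap1, Fhl1, Ifh1 and Sfp1 act on many of them, and they are known for a joint fall in mRNA after heat shock and other stresses. TBP, the TATA-binding protein, is delivered to promoters by TFIID, of which TAF1 is a subunit, or by SAGA, of which Spt3 is the subunit that contacts TBP. Mot1 uses ATP to strip TBP off promoters, while Bdf1, through its bromodomains, binds acetylated histones and associates with TFIID. Ribosomal protein promoters are known as promoters with high TFIID occupancy.

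All values are log2 ratios of heat shocked over mock treated cells on arrays centred on their median, with the fitted channel effect taken off. They are ratios within an array and give no level of a transcript or of a factor, and no gene's level is set against another's. The labels do not name the numerator channel, and the direction used is likely rather than known. With the RNA direction used, all 17 cytosolic and mitochondrial chaperone genes examined lay above 0, and 15 of them passed the test as higher. For ChIP, the regions at chaperone promoters lay above 0 on 10 of 10 factor arrays with heat shocked DNA in channel 1, and below 0 on 8 of 10 with it in channel 2. The opposite reading of the ChIP channels would swap every ChIP sign. A change in a culture does not tell fewer cells with a transcript from less of it per cell.

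After 15 min at 37 °C, the RNA of the large subunit genes fell almost as a block. Of 80 probes, 77 were lower in heat shocked than in mock treated cells and 0 were higher (limma, adjusted p under 0.05), against 18.9% of all probes lower and 18.2% higher. Values at or below -1 were found for 76 of the probes. The members' median was -1.87, a ratio of 0.273, against a median of 0.01 over all 6772 probes. With arrays scaled to a common spread, the median was -1.19 with 62 calls. By array, the members' median was -1.73 on heat shock array A and -2.00 on heat shock array B, against 0.22 and 0.03 on mock arrays A and B. Both heat shock arrays therefore lay well below both mock arrays. Leaving out heat shock array A or either mock array gave 77 or 78 lower probes, and leaving out heat shock array B gave 64.

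The 3 probes that did not pass the test were RPL41B, the second probe of RPL22B, and RPL11B. Each is a member of a duplicated pair whose other gene passed as lower.

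**Figure D1:**
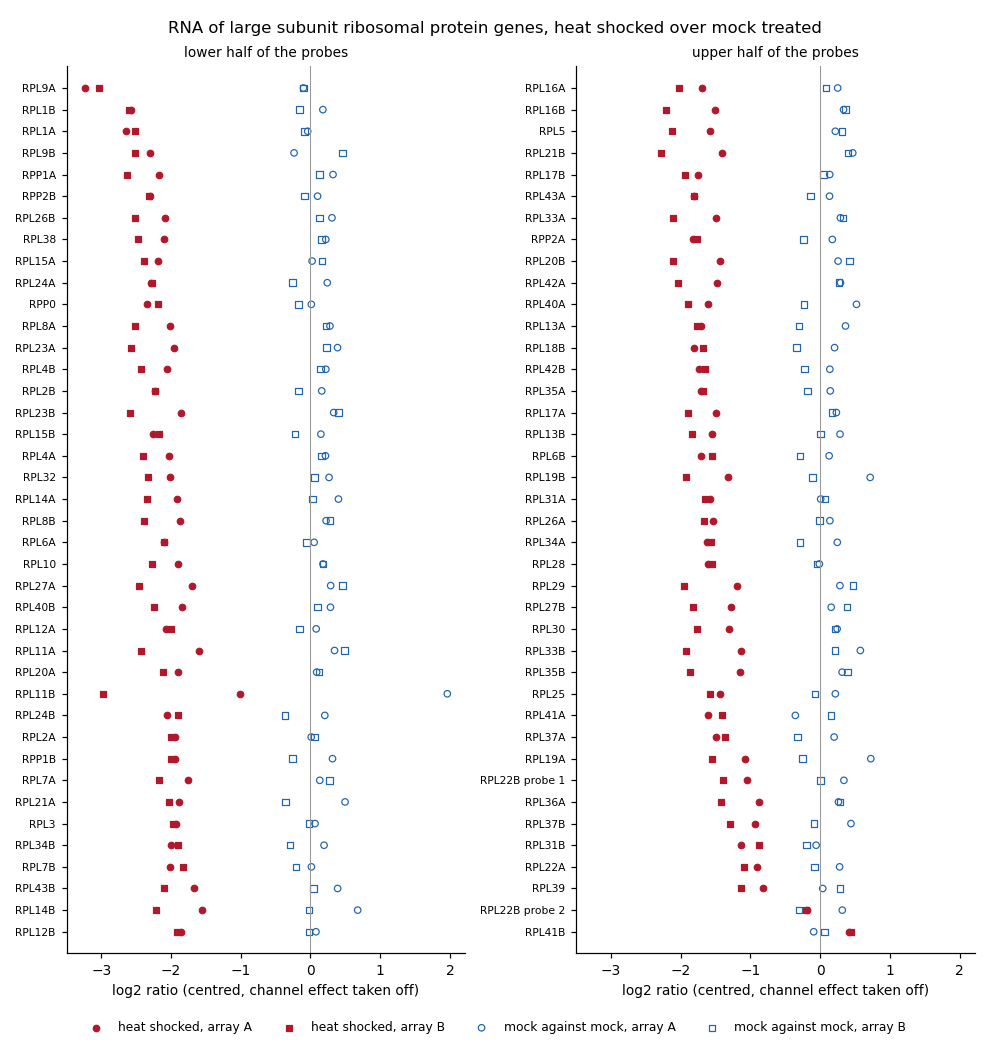
RNA log2 ratio (horizontal axis) of each of the 80 large subunit probes on the 2 heat shock arrays (filled red, heat shocked over mock treated) and the 2 mock arrays (open blue), with the channel effect taken off. The heat shock points lie to the left of the mock points for nearly all probes, with RPL9A farthest left and RPL41B to the right of 0.

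The lowest value belonged to RPL9A, which encodes uL6, a protein near the base of the P stalk. RPL9A read -3.24 and -3.04 on the heat shock arrays, against -0.10 and -0.10 on the mock arrays, with a fitted change of -3.14 ± 0.16 (SE, adjusted p = 5.24e-05). Its heat shock and mock values were separated by over 2 log2 units. RPL9B, the paralogue, read -2.30 and -2.52 on the heat shock arrays, against -0.23 and 0.46 on the mock arrays, with a fitted change of -2.41 ± 0.21 (adjusted p = 0.000259). Here too the groups did not overlap.

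The L1 stalk, a mobile arm that contacts tRNA leaving the ribosome, is formed by the protein of RPL1A and RPL1B. RPL1B read -2.58 and -2.60 on the heat shock arrays, against 0.18 and -0.16 on the mock arrays (fitted -2.59 ± 0.16, adjusted p = 9.01e-05). RPL1A read -2.64 and -2.52 on the heat shock arrays, against -0.04 and -0.08 on the mock arrays (fitted -2.58 ± 0.15, adjusted p = 7.97e-05). The 2 genes followed RPL9A as the lowest in the set and had almost the same change.

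The P stalk recruits the translation GTPases, and its members are RPP0, the acidic proteins of RPP1A, RPP1B, RPP2A and RPP2B, and RPL12A and RPL12B at its base. All 7 genes were lower, with a median of -2.03 and a range of -2.40 to -1.79. RPP0, the stalk's scaffold and a single-copy gene, read -2.35 and -2.19 on the heat shock arrays, against 0.01 and -0.17 on the mock arrays (fitted -2.27 ± 0.16, adjusted p = 0.000126). RPP1A, at -2.40 ± 0.20, was the lowest of the stalk genes and RPP2A, at -1.79 ± 0.17, the highest.

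The genes for proteins at the tRNA sites and the core of the subunit, RPL2A, RPL2B, RPL3, RPL10 and RPL28, were lower in 5 of 5 cases, with a median of -1.97. RPL10, which encodes a late-joining protein near the peptidyl transferase centre, read -1.91 and -2.27 on the heat shock arrays, against 0.18 and 0.18 on the mock arrays (fitted -2.09 ± 0.18, adjusted p = 0.000242). RPL3, whose protein also reaches towards that centre, read -1.93 and -1.98 on the heat shock arrays, against 0.07 and -0.02 on the mock arrays (fitted -1.96 ± 0.15, adjusted p = 0.000178). Neither gene has a paralogue and both were close to the members' median.

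RPL5, RPL11A and RPL11B encode the proteins that form the 5S RNP with 5S rRNA. RPL5 was lower at -1.85 ± 0.21 and RPL11A at -2.02 ± 0.27. RPL11B had a fitted change of -1.99 ± 0.73 that did not pass the test (adjusted p = 0.0837). Its readings were -1.01 and -2.98 on the heat shock arrays and 1.96 on mock array A, and mock array B had no value, so that its spread was by far the widest of the 3 genes.

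RPL40A and RPL40B, which encode a ribosomal protein fused to ubiquitin, were lower at -1.75 ± 0.22 and -2.04 ± 0.19.

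The genes for proteins around the polypeptide exit tunnel gave the widest range of the role groups, with 16 of 17 probes lower, a median of -1.60 and values from -2.30 to -0.20. RPL39, the gene of a very small protein in the tunnel wall, read -0.81 and -1.13 on the heat shock arrays, against 0.04 and 0.28 on the mock arrays (fitted -0.97 ± 0.18, adjusted p = 0.00584). Its change was among the smallest of the called members, and it lost the threshold without heat shock array B, at -0.65, with scaled arrays, at -0.62, and when the heat shock arrays were fitted alone, at -0.97. The second probe of RPL22B read -0.20 and -0.21 on the heat shock arrays, against 0.32 and -0.31 on the mock arrays (fitted -0.20 ± 0.19, adjusted p = 0.45), so that its heat shock values lay between its mock values. The first probe of the same gene was lower at -1.23 ± 0.19, and the 2 probes of RPL22B therefore did not give the same result.

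The one member above 0 was RPL41B. RPL41A and RPL41B encode the shortest protein of the ribosome. RPL41B read 0.42 and 0.45 on the heat shock arrays, against -0.09 and 0.06 on the mock arrays (fitted 0.43 ± 0.15, adjusted p = 0.0636). Its heat shock values lay above its mock values but the difference did not pass the test. RPL41A read -1.61 and -1.40 on the heat shock arrays, against -0.36 and 0.15 on the mock arrays (fitted -1.51 ± 0.19, adjusted p = 0.00106), and passed as lower, a call that was lost with arrays scaled to a common spread, at -0.95.

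The 44 probes outside these role groups had a median of -1.87, with 43 lower, and the exception was RPL41B. The 11 single-copy genes, all lower, had a median of -1.85, and the 69 probes of duplicated genes, with 66 lower, one of -1.88.

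Gene lists around the ribosome gave like counts. The small subunit genes were lower in 56 of 56 probes, with a median of -1.97, and the 60S assembly factors, which process and export the pre-60S particle, in 62 of 62 with a median of -1.96 and a range of -3.78 to -0.69. The 5 genes for chaperones dedicated to large subunit proteins were all lower. They were BCP1 at -2.96, RRB1 at -2.66, ACL4 at -2.15, SYO1 at -1.96 and SQT1 at -1.42. Of 10 regulators of ribosomal protein transcription, RAP1 was higher at 1.27 ± 0.18 (adjusted p = 0.0017), FHL1 was lower at -0.90 ± 0.17 (adjusted p = 0.0071), TOR1 was lower at -0.50 ± 0.16 (adjusted p = 0.0497) and the other 7 were not called.

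The A and B genes of a pair encode proteins that are identical or nearly so, and the difference in response between them was tested within each array, as A minus B. Across the 33 member pairs the heat responses of A and B genes correlated at r = 0.61 (Spearman's rho = 0.599, n = 33 pairs measured on the same 4 arrays, as a description). The median absolute difference was 0.25 and 27 of the 33 pairs differed by less than 0.5, with a median standard error of 0.16. Only 1 of the 33 member pairs passed the test, against 11.9% of all 59 pairs tested. Those 59 include the 33, and the rest are small subunit pairs, COX5 and NHP6, so they are no general background of paralogues. At an unadjusted p under 0.05, 8 member pairs passed. Among the other pairs, COX5, NHP6, RPS7, RPS9, RPS14, RPS16, RPS22, RPS26, RPS27 and RPS30 also passed at that level. Passing at that level was thus not particular to the members. A miss of the threshold does not show that the genes of a pair responded alike. Whether probes cross-hybridise between paralogues was not tested, since probe sequences were not used here.

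The called pair was RPL41. Its A minus B value was -2.03 and -1.85 on the heat shock arrays, against -0.26 and 0.09 on the mock arrays (fitted -1.94 ± 0.16, adjusted p = 0.0101 over all pairs). The heat shock values were far outside the mock values, but the call was lost when any of the 4 arrays was left out, while the fitted difference stayed between -2.11 and -1.77. With scaled arrays it was -1.23 and not called. The RPL9 difference was -0.94 and -0.52 on the heat shock arrays, against 0.14 and -0.56 on the mock arrays (fitted -0.73 ± 0.25, adjusted p = 0.132), so that heat shock array B lay beside mock array B. The RPL26 difference was 0.55 and 0.86 on the heat shock arrays, against -0.17 and -0.14 on the mock arrays (fitted 0.71 ± 0.16, adjusted p = 0.071). RPL26A, whose protein sits near the tunnel exit, was lower by less than RPL26B in the fit, with no overlap between heat shock and mock arrays, and the pair did not pass the adjusted threshold.

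**Figure D2:**
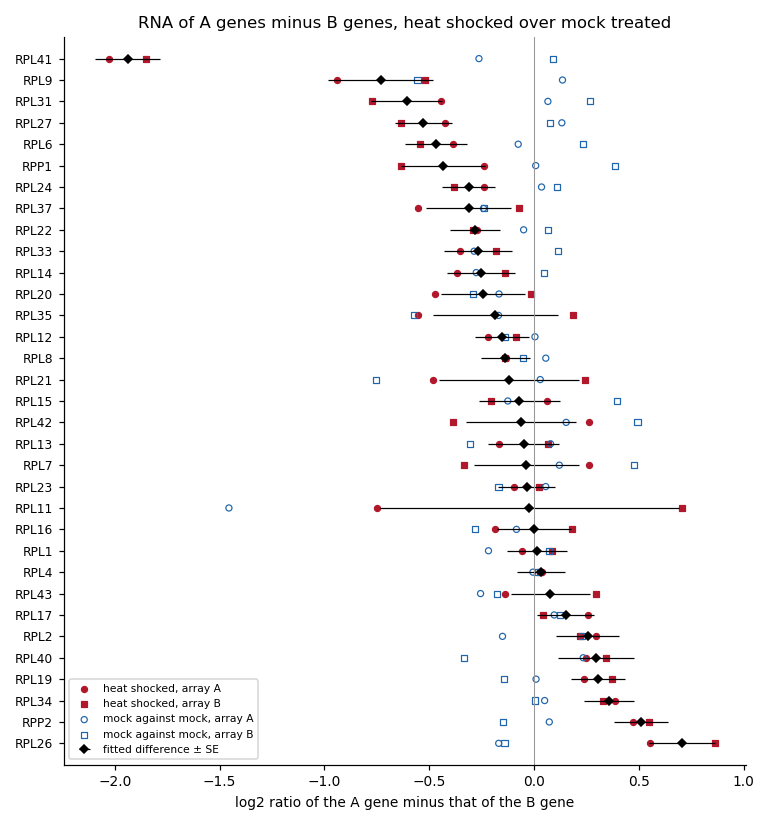
RNA log2 ratio of the A gene minus that of the B gene (horizontal axis) in 33 pairs of large subunit genes, on the 2 heat shock arrays (filled red) and the 2 mock arrays (open blue), with the fitted difference ± SE in black. RPL41 lies far left at -1.94, RPL9 at -0.73 is next, RPL26 at 0.71 is farthest right, and 27 pairs have a fitted difference smaller than 0.5.

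At the promoters of the same genes, few regions passed the test for any of the 5 factors. Of 75 member regions, 17, or 22.7%, were called for at least 1 factor, against 38.1% of all 6392 regions, and 7, or 9.33%, were called for 2 or more, against 18.2% of all regions. The remaining 58 were called for none. Members without a region included RPL21B, RPL42A, RPL8B, RPL9B, RPP0 and RPP2B, and the region of RPL3 had too few values. Of the tested regions, 38 also border the 5′ end of a neighbouring gene and their values cannot be assigned to either. The median standard error of a member region was 0.13 for a factor.

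TBP was higher at 1 member region, against 8.35% of all regions, and lower at 2, against 4.01% (limma, as for all factors below). Each factor's fitted value was tested against 0. Null values printed beside a region are for comparison and do not enter that p-value as a contrast. The members' median was -0.11, against -0.02 over all regions, and 63 of 75 member regions lay below 0, against 53.3% of all regions. Small subunit regions had a TBP median of -0.11, with 42 of 54 below 0. Without centring the members' median was 0.08. The members' median lay below 0 on array A, at -0.25, and on array B, at -0.38, and above 0 on arrays C and D, at 0.14 and 0.03, so the TBP arrays did not share a sign. The count of 3 was 1 without TBP array A, 0 without B, and 4 and 2 without C and D.

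The lowest TBP region was the second of 3 regions assigned to RPL9A, the gene with the lowest RNA value. It read -0.55, -0.91, -0.34 and -0.26 on TBP arrays A to D (fitted -0.52 ± 0.13, adjusted p = 0.00839), against 0.47, 0.17 and 0.22 on Null arrays B to D, with no value on Null array A. All TBP values were below all Null values. The call was lost without TBP array B, at -0.38. The other RPL9A regions, at -0.34 and -0.29, were not called.

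RPL1A, the second TBP region called lower, read -0.61, -0.58, -0.34 and -0.26 on the TBP arrays, against 0.71, 0.55, 0.03 and -0.03 on the Null arrays (TBP fitted -0.45 ± 0.13, adjusted p = 0.0227). TBP values were again all below the Null values. The call was lost without TBP array A, at -0.39, or B, at -0.40.

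RPL15B, whose protein lies deep in the subunit, was the single region where TBP was higher. It read 0.42, 0.24, 0.38 and 0.29 on the TBP arrays, against 0.30, -0.12, -0.01 and 0.21 on the Null arrays (TBP fitted 0.33 ± 0.11, adjusted p = 0.0398). The groups overlapped through Null array A, and the call was lost without any single TBP array, with values from 0.30 to 0.37. The RNA of RPL15B was lower at -2.22 ± 0.17.

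TAF1 was higher at 1 member region, against 12.2% of all regions, and lower at 4, against 8.67%, with a members' median of -0.07 against -0.01, which was 0.07 without TAF1 array B and 0.02 with array weights. Scaling the arrays to one spread left 0 higher and 1 lower. The 4 lower regions were both regions between IME1 and RPL43B, the second RPL9A region and RPL1A. The first region between IME1 and RPL43B read -0.47, -0.83, -0.27 and -0.14 on the TAF1 arrays, against 0.13, 0.17, -0.19 and 0.14 on the Null arrays (TAF1 fitted -0.43 ± 0.11, adjusted p = 0.00848). TAF1 array D lay above Null array C, so the groups overlapped. IME1, the meiotic regulator across the region, had an RNA change of 0.16 ± 0.17, and RPL43B one of -1.89 ± 0.20. The second RPL9A region read -0.66, -0.68, 0.02 and -0.19 on the TAF1 arrays (fitted -0.38 ± 0.13, adjusted p = 0.0363). The low values were those of arrays A and B, and the call was lost without either.

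TAF1 was higher at the region between PUF2 and RPL43A, at 0.47, 0.24, 0.43 and 0.30 on the TAF1 arrays, against -1.12, -0.06, -0.13 and 0.06 on the Null arrays (TAF1 fitted 0.36 ± 0.13, adjusted p = 0.0485). All TAF1 values were above all Null values, and Null array A lay far below the others. The call was lost without any single TAF1 array. Over all members the count of 5 was 1 without TAF1 array A, 1 without B and 3 without D. The TAF1 values had opposite signs at the region between PUF2 and RPL43A and at those between IME1 and RPL43B. Each of these regions also borders the 5′ end of another gene, so the values cannot be assigned to RPL43A or RPL43B. The RNA of RPL43A and RPL43B was lower at -1.81 ± 0.16 and -1.89 ± 0.20.

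Spt3 was higher at 1 member region, against 3.88% of all regions, and lower at 5, against 1.77%. The members' median was -0.18, against 0.01 over all regions, and 64 of 75 member regions lay below 0, against 48.9% of all regions. Small subunit regions had an Spt3 median of -0.15, with 41 of 54 below 0. The members' median was below 0 on each Spt3 array, from -0.24 to -0.16. The count of 6 was 1 without Spt3 array B, 2 without C, 4 without D and 2 without E. With scaled arrays 1 region was higher and 10 lower, and without centring 0 were higher and 0 lower. Against the Null strain no member region passed, as given with the other contrasts.

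RPL12A, at the base of the P stalk, had the lowest called Spt3 value. It read -0.95, -0.50, -0.48 and -0.41 on Spt3 arrays B to E, against -0.12, 0.16, -0.23 and 0.46 on the Null arrays (Spt3 fitted -0.59 ± 0.16, adjusted p = 0.0308). All Spt3 values were below the Null values, and the call was lost without any single Spt3 array. The region between MLP2 and RPL40A read -0.56, -0.39, -0.34 and -0.40 on the Spt3 arrays, against 0.05, 0.30, -0.12 and 0.23 on the Null arrays (Spt3 fitted -0.42 ± 0.11, adjusted p = 0.0204). The groups did not overlap, and the call was lost without Spt3 array B, C or E. RPL20B, RPL8A and the region between SLX8 and RPL23B were the other regions called lower, at -0.42, -0.40 and -0.31.

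The member region called higher for Spt3 was again RPL15B, at 0.88, 0.52, 0.36 and 0.50 on the Spt3 arrays (fitted 0.57 ± 0.11, adjusted p = 0.0026). Every Spt3 value was above the Null values given above. The call held without each Spt3 array in turn, in fits that kept the arrays of the other groups. It was lost when only the Spt3 arrays were fitted, where no member region was called. The highest fitted Spt3 value, 1.44 ± 0.68 at the region between RPL18B and TOS6, was not called (adjusted p = 0.226) and rested on 3 arrays.

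Mot1 was higher at 2 member regions, against 8.57% of all regions, and lower at 1, against 4.18%, with a members' median near 0. With scaled arrays the split was 1 higher and 1 lower, and without centring 0 higher and 74 lower. RPL15B read 0.59, 0.58, 0.99 and 1.05 on Mot1 arrays A to D (fitted 0.80 ± 0.11, adjusted p = 2.64e-05), against 0.30, -0.12, -0.01 and 0.21 on the Null arrays. All Mot1 values were above the Null values and the call held without each Mot1 array in turn, in fits that kept the arrays of the other groups. The RPL15B call was lost when only the Mot1 arrays were fitted, where no member region was called. Without centring, where the Mot1 median of the members was -1.16, the fitted value was -0.36 and not called. TAF1 at the same region read 0.26, -0.39, -0.00 and 0.11, and Bdf1 had a fitted value of -0.16 ± 0.11, and neither was called. RPL15B was thus called higher for TBP, Spt3 and Mot1 and not for TAF1 or Bdf1.

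The region between VPS73 and RPL28 read -0.13, 0.54, 0.43 and 0.64 on the Mot1 arrays, against 0.15, 0.18, -0.03 and 0.13 on the Null arrays (Mot1 fitted 0.37 ± 0.12, adjusted p = 0.0368). Mot1 array A lay below the Null values, and the call was lost without Mot1 array B, C or D. VPS73 RNA, across this region, was higher at 1.84 ± 0.15 (adjusted p = 0.0002), whereas RPL28 RNA was lower at -1.58 ± 0.15. The region shared by RPL20A and YMR242W-A was the one called lower, at -0.26, -0.19, -0.59 and -0.39 on the Mot1 arrays, against 0.08, -0.14, -0.22 and 0.04 on the Null arrays (Mot1 fitted -0.36 ± 0.08, adjusted p = 0.004). The groups overlapped through Mot1 array B, and the call held without each Mot1 array in turn. The count of 3 over all members was 5 without Mot1 array A and did not exceed 2 without B, C or D.

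Bdf1 was higher at 6 member regions, against 8.42% of all regions, and lower at 2, against 7.81%, with a members' median of 0.02 against -0.01. With scaled arrays 4 were higher and 0 lower. RPP1B, an acidic P stalk gene, read 0.09, 0.41, 1.09 and 0.77 on Bdf1 arrays A to D, against -0.06, 0.17, 0.28 and 0.04 on the Null arrays (Bdf1 fitted 0.59 ± 0.18, adjusted p = 0.03). Bdf1 array A lay among the Null values, and the call was lost without array C, at 0.38, or D, at 0.53. The RPP1B region also had the lowest input value of the members, at -0.46 for the TAF1 strain over the Spt3 strain, and was not called there. The region between VPS73 and RPL28 read 0.16, 0.55, 0.74 and 0.57 on the Bdf1 arrays (fitted 0.51 ± 0.12, adjusted p = 0.00455), with array A among the Null values given above, and lost the call without array C, at 0.41.

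The 2 regions between IME1 and RPL43B were the ones called lower for Bdf1. The first read -0.60, -0.08, -0.39 and -0.29 on the Bdf1 arrays (fitted -0.34 ± 0.11, adjusted p = 0.0433), and the second -0.06, -0.37, -0.21 and -0.28 (fitted -0.23 ± 0.08, adjusted p = 0.0482), against -0.01, 0.15, -0.31 and -0.20 on the Null arrays for the second region. Both overlapped with the Null arrays. The first call was lost without Bdf1 array A, C or D and the second without B, C or D. The other regions called higher were those of RPL15A with YLR030W at 0.48, PUF2 with RPL43A at 0.41, RPL11A with PRE2 at 0.37 and RPL38 with YLR326W at 0.30. PRE2 RNA was higher at 0.72 ± 0.16, and the remaining partners of these regions were not called. The count of 8 was 5 without Bdf1 array B, 1 without C and 2 without D.

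**Figure D3:**
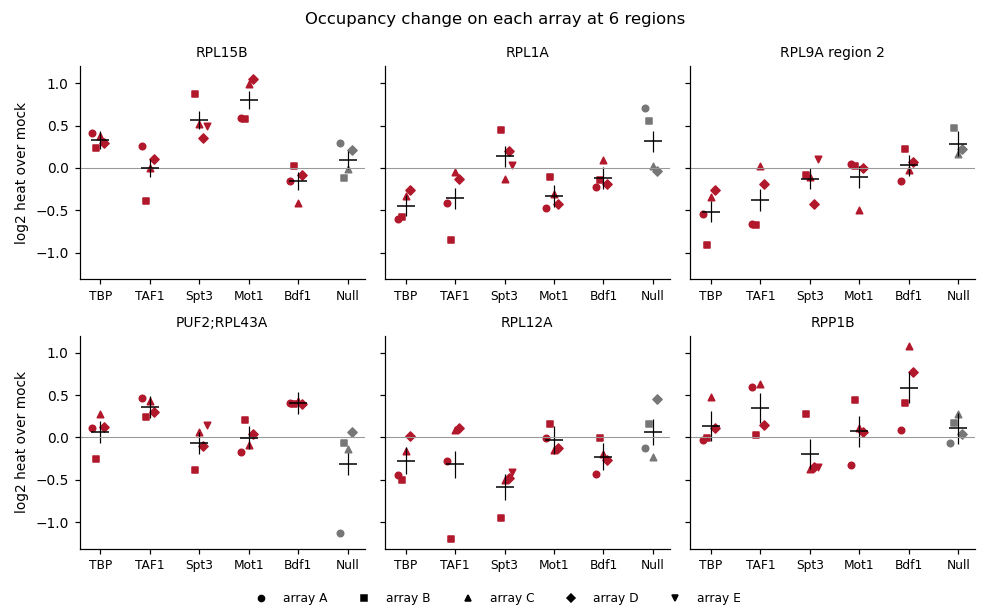
Log2 ratio of heat shocked over mock treated ChIP DNA at 6 member regions, with 1 point per array for each factor and the Null strain, and a bar for the fitted value ± SE. RPL15B stands above 0 for Spt3 and Mot1 on every array, and RPL1A and the second RPL9A region stand below 0 for TBP.

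By role, no exit tunnel region of 16 was called for any factor. For Spt3, 15 of the 16 lay below 0, with a median of -0.26, as did 64 of all 75 member regions, with a median of -0.18. Among the 5 P stalk regions, RPL12A was called lower for Spt3 and RPP1B higher for Bdf1. The promoter region of the named gene RPL41A had a TBP value of -0.11 and that of RPL41B, shared with SRF1, one of -0.06, while their RNA values were far apart. The region shared by BUD20 and RPL10 had TBP at -0.17 and Mot1 at 0.42 (adjusted p = 0.229), and neither was called.

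In the Null strain, 0 of 75 member regions passed (limma), against 0.0313% of all regions, while 12, or 16%, passed at an unadjusted p under 0.05, against 19.9% of all regions. The count was 6 without Null array C and 4 without D, and without centring it was 0 higher and 66 lower. The region of RPL36A read -3.44 and -1.21 on Null arrays A and B, and those 2 arrays had the largest residual spread of the ChIP arrays, with a median absolute deviation of 0.36 and 0.31 against 0.09 to 0.28 on the others. The input arrays gave 0 member calls, and 2 at an unadjusted p under 0.05, against 0.563% of all regions.

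**Figure D4:**
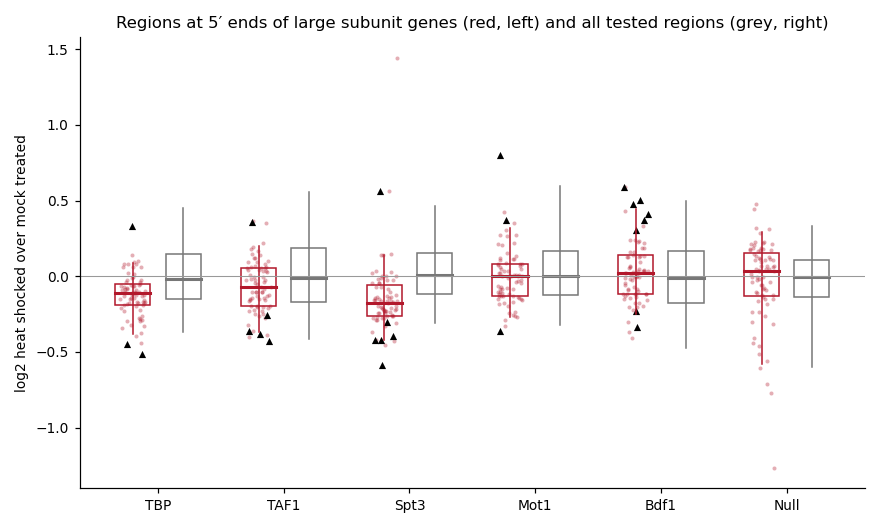
Log2 ratio of heat shocked over mock treated ChIP DNA at the 75 member regions (red, left of each pair, with points and with called regions as black triangles) and over all 6392 regions (grey, right), with quartiles as boxes and a line for the spread without the outermost 5% at each end, for each factor and the Null strain. The member medians run from -0.18 for Spt3 to 0.03 for Null, and the called regions are few.

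The difference between each factor and the Null strain was also tested, and these contrasts share the same Null arrays. For TBP, 0 regions were higher and 3 lower, against 6.96% of all regions called. These were RPL1A at -0.76 ± 0.18 and the first and second RPL9A regions at -0.82 ± 0.18 and -0.80 ± 0.19. For TAF1, 1 region was higher and 4 lower, against 11.5% of all regions. The higher one was PUF2 with RPL43A at 0.68, and the lower ones were the first region between IME1 and RPL43B at -0.49, RPL1A at -0.67 and the first and second RPL9A regions at -0.70 and -0.66. That count of 5 was 0 without TAF1 array A, 1 without TAF1 array B and 2 without Null array B. The TBP count lay between 2 and 4 over the left-out arrays, and without centring it was 24 higher and 0 lower. With scaled arrays TAF1 gave 1 higher and 1 lower.

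For Mot1 minus Null, RPL15B was higher at 0.71 ± 0.15 (adjusted p = 0.0051) and RPL1A lower at -0.64, against 6.96% of all regions called. For Bdf1 minus Null, PUF2 with RPL43A was higher at 0.72 and the first RPL9A region lower at -0.66, against 8.71%. With scaled arrays Mot1 gave 1 higher and 0 lower, whereas Bdf1 gave 2 higher and 1 lower. For Spt3 minus Null, 0 of 75 passed, against 0.954%, with 21, or 28%, at an unadjusted p under 0.05 against 18.9% of all regions, and RPL15B had a value of 0.47 (adjusted p = 0.107). The Mot1 count of 2 was 1 without Mot1 array A, C or D or Null array A or B, 8 without Null array C and 6 without Null array D. The Bdf1 count of 2 was 1 without Bdf1 array B, C or D or Null array A or B, and 5 without Null array D. The Spt3 count of 0 was 1 without Null array A or D and 6 without Null array C. Without both Null arrays A and B, which had the largest spread, the contrasts of TBP, TAF1 and Bdf1 gave 0 calls and that of Mot1 gave 1.

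Spt3 was set against TAF1, as the marks of SAGA and TFIID. The difference Spt3 minus TAF1 passed at 3 member regions, 1 higher and 2 lower, against 4.05% of all regions. RPL15B was higher at 0.57, and MLP2 with RPL40A and TDA3 with RPL27A were lower at -0.52 and -0.45. With scaled arrays 1 was higher and 1 lower. The count was 0 without Spt3 array B, C or E or TAF1 array C, and 1 without Spt3 array D or TAF1 array A or D.

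The 60S assembly genes, whose median RNA change was -1.96, gave other counts at their promoters in the same fit. Of 55 assembly regions, TBP was lower at 27, with a median of -0.34, and TAF1 at 36, with a median of -0.51. Mot1 was lower at 19 and Bdf1 at 29, with medians of -0.25 and -0.43, and Spt3 at 0, with a median of -0.02. The corresponding counts of lower large subunit regions were 2, 4, 1, 2 and 5 of 75 for TBP, TAF1, Mot1, Bdf1 and Spt3. Of 54 small subunit regions, 3 were lower for TBP, 2 for TAF1, 3 for Mot1, 3 for Bdf1 and 2 for Spt3. The difference between lists was not tested. Of the 4 regions of dedicated ribosomal protein chaperones, RRB1 was lower for TBP at -0.73 ± 0.13 and also lower for TAF1, Mot1 and Bdf1, and BCP1 was lower for TAF1 at -0.19 ± 0.07.

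Across the 72 members with both values, the RNA response was only weakly related to the response of any factor, as a description. Spearman's rho was 0.141 with TBP, -0.028 with TAF1, 0.064 with Spt3, 0.255 with Mot1, 0.006 with Bdf1 and -0.348 with the Null strain, so that the largest absolute value was that of the background. Genes with shared regions enter with the same ChIP value. Across the 75 member regions, TBP and TAF1 correlated at rho = 0.698 and TAF1 and Bdf1 at 0.718. TBP and Mot1 gave 0.329, Spt3 and Mot1 0.363 and TBP and Spt3 0.211. The fits share the channel effect, which can carry part of each of these values.

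**Figure D5:**
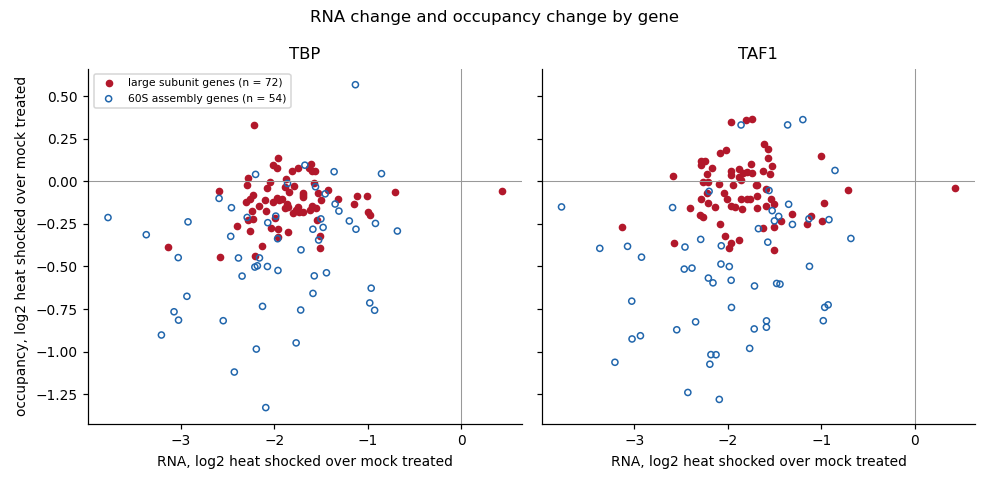
RNA log2 ratio against the ChIP log2 ratio of TBP and of TAF1, both heat shocked over mock treated, for 72 large subunit genes (filled red) and 54 60S assembly genes (open blue). Both sets lie at low RNA values, and the assembly genes reach lower ChIP values than the large subunit genes.

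The A and B genes of a pair were also compared at their promoters, over 29 member pairs whose A and B genes share no region with each other, and each factor's heat response was tested as A minus B. In 21 of the 29 pairs, at least 1 of the regions also borders the 5′ end of another gene, so the difference cannot be assigned to the pair alone. The RPL13 pair and the small subunit pair RPS16 rest on the same regions with the sign turned, and enter the 52 pairs tested as 2. The 52 pairs include the 29, and the rest are small subunit pairs and COX5. Calls for TBP were made for 2 of 29 pairs, against 9.62% of all 52 pairs, RPL1 at -0.39 ± 0.12 and RPL14 at -0.34 ± 0.09. RPL1 read -0.44, -0.20, -0.42 and -0.50 on the TBP arrays, against 0.53, 0.20, 0.07 and -0.21 on the Null arrays (adjusted p = 0.0395). The difference was negative on every TBP array, with TBP array B beside Null array D, and the call was lost without any single TBP array. The largest absolute TBP difference was that of RPP1 at -0.40 ± 0.17, with -0.40, -0.49, -0.52 and -0.20 on the TBP arrays, and it was not called (adjusted p = 0.141). On the input arrays the RPP1 pair differed by more, at 0.48 ± 0.17, and was not called either (adjusted p = 0.493). Input arrays A to D read 1.17, -0.11, 0.60 and 0.27 for this pair.

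For TAF1, 2 member pairs were called, RPL1 at -0.39 and RPL43 at 0.70, against 7.69% of all pairs. For Spt3 there were 3, RPL1 at 0.38, RPL12 at -0.46 and RPL15 at -0.79, against 9.62%. For Mot1 there were 2, RPL15 at -0.91 and RPL20 at -0.33, against 9.62%. For Bdf1 there were 8, against 26.9%. In RPL15, the B region gave the higher value for Spt3 and Mot1, and the A region, which is shared with YLR030W, for Bdf1 at 0.64. The Null strain gave 6 member calls, RPL13, RPL17, RPL26, RPL27, RPL33 and RPL36, against 21.2% of all pairs. Among all pairs, RPL13 and RPS16 are 1 difference counted 2 times. Null array A, which had the largest residual spread, lay farthest from 0 in each of the 6. RPL27 read 2.77 on Null array A and 0.42, -0.30 and 0.09 on B to D. RPL36 read -2.73, -0.87, -0.47 and -0.25 on Null arrays A to D, and RPL13 read 0.39, 0.22, 0.14 and 0.26. The total over the 5 factors was 17, and it was 11 without TBP array A or C or Bdf1 array C.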

How the data were processed

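RNA and ChIP DNA were hybridised to 2-colour arrays and scanned with a GenePix 4000A and GenePix Pro 4.0, per the labels' protocols. The deposited log2 values are ratios of the 2 channels of each array, neither centred nor turned by condition as the values show. Nothing read here names the background correction or the normalization. Array medians of the deposited log2 ratios ran from -1.76 to 1.77 for ChIP, with 6644 to 6953 values per array, and from -0.18 to -0.06 for RNA, with 6865 to 6944. The number of arrays limits the precision.

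Each array was centred on its median and turned to heat shocked over mock treated, reading RNA as channel 2 over channel 1 and ChIP as channel 1 over channel 2. As deposited, RNA heat shock arrays A and B, of opposite channel order, correlated at -0.682. ChIP arrays of opposite order correlated at up to 0.505, and the channel effect was therefore fitted. limma 3.58.1 in R 4.3.3 fitted all 28 ChIP arrays together, with a coefficient per group and one channel effect per region, on regions with at least 3 values in every group. The 4 RNA arrays were fitted together, with heat and channel, on probes with values on 2 heat shock arrays and at least 1 mock array. Benjamini-Hochberg adjustment ran over all features, with calls under 0.05 (two-sided). A and B pairs were tested as differences within arrays and adjusted over all pairs of such symbols in the table. Both probes of RPL22B were averaged there. Fits were checked on simulated data with equal noise on every array, which does not check the unequal spread between these arrays. Regions were assigned to genes by their side and the strand of their neighbours from a RefSeq table. The build used in the files is not named, so no coordinates are given.

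Genes with values for each array were, by rule, the 3 lowest and highest RNA members, the 2 lowest and highest called regions per factor, RPP0, RPL3, RPL10, RPL41A, RPL9A, RPL9B, the 3 most different RNA pairs and 2 TBP pairs. The members and lists were chosen with earlier results of these data known. Alternatives covered the channel term, centring, scaling, missing values, array weights, blocks, placing of regions, direction and left-out arrays.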

Additional observations from a re-analysis of the deposited data

Results flagged for a closer look

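Among the 4 Bdf1 arrays, the members' median on array A was -0.2639, far from the others, which lay between 0.07 and 0.12. Chance flags about 5% of groups of this size. The same rule was run on the members' median of every ChIP group and on each named region with its factor, and this was the only flag. A single flag over that many can arise by chance.

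The heat response of a factor differed from that of the Null strain, in a test of the difference itself, at the following member regions. For TBP these were RPL1A (-0.7589) and the first and second RPL9A regions (-0.8207 and -0.8007). For TAF1 they were the first region between IME1 and RPL43B (-0.4876), PUF2 with RPL43A (0.6764), RPL1A (-0.6739) and the first and second RPL9A regions (-0.704 and -0.6634). For Mot1 they were RPL15B (0.7072) and RPL1A (-0.6424), and for Bdf1 PUF2 with RPL43A (0.7231) and the first RPL9A region (-0.6574). These contrasts share the Null arrays, and Null arrays A and B read 0.71 and 0.55 at RPL1A.

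Spt3 differed from TAF1 at MLP2 with RPL40A (-0.5231), RPL15B (0.5692) and TDA3 with RPL27A (-0.4464). The regions at RPL9A lie beside each other and their values are not independent.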

How the results depend on the processing

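The fall of large subunit RNA kept its direction and most of its calls under every alternative run, with 62 to 77 calls outside the left-out arrays and a median of -1.185 with arrays scaled to equal spread, which also gave 0 called RNA pairs. The ChIP counts did not keep theirs, and the cause was not tested. Leaving out single arrays gave 64 to 78 RNA calls, RNA medians of -2.1241 to -1.6485, 0 RNA pairs, 0 to 4 calls for TBP, 1 to 5 for TAF1, 1 to 4 for Spt3, 2 to 5 for Mot1, 1 to 8 for Bdf1, 0 to 6 for Null and 11 to 25 for ChIP pairs. For differences from Null it gave 2 to 4 for TBP, 0 to 6 for TAF1, 0 to 6 for Spt3, 1 to 8 for Mot1 and 1 to 5 for Bdf1, and for Spt3 minus TAF1 0 to 3. Without a channel effect there were 1 for TBP, 3 for Spt3, 5 for Bdf1, 1 for Mot1 minus Null and 0 for Spt3 minus TAF1.

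Without centring, members called were 0 for TBP, TAF1, Spt3 and Bdf1, 74 for Mot1 and 66 for Null, 24 for TBP minus Null, and 0 for TAF1, Mot1 and Bdf1 minus Null and Spt3 minus TAF1. The medians were -0.3474 for Spt3, -1.1614 for Mot1, -0.1673 for Bdf1 and -0.8732 for Null, and Mot1 turned sign at VPS73 with RPL28 (-0.7881) and RPL15B (-0.3568). With scaled arrays there were 1 for TAF1, 11 for Spt3, 4 for Bdf1, 1 for Null, and against Null 2 for TAF1, 3 for Spt3 and 1 for Mot1. With array weights there were 13 for TBP, 14 for Spt3, 8 for TBP minus Null, 1 for TAF1 minus Null, 2 for Spt3 minus Null, 1 for Mot1 minus Null, 7 for Spt3 minus TAF1 and 26 ChIP pairs. Fitting only the arrays compared gave 0 for TAF1, Spt3, Mot1 and Bdf1, 0 for TBP, TAF1, Mot1 and Bdf1 minus Null, 0 for Spt3 minus TAF1 and 7 ChIP pairs.

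Regions named by the member itself gave 6 for TBP, 9 for TAF1, 7 for TBP minus Null, 1 for Spt3 minus Null, 1 for Spt3 minus TAF1 and a Spt3 median of -0.1047. That set takes every region whose named gene is a member, also where the region borders the gene's 3′ end. Its counts are therefore not those of member promoters alone. Regions of 1 promoter gave 2 for TAF1, 1 for Mot1, 1 for Bdf1, 3 for TAF1 minus Null, 1 for Bdf1 minus Null and 1 for Spt3 minus TAF1. An alternative chosen after seeing the data, leaving out Null arrays A and B together, gave 0 for TBP, TAF1 and Bdf1 minus Null and 1 for Mot1 minus Null.

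Taking the deposited values as already turned gave 0 calls for all 5 factors, for TBP, TAF1, Mot1 and Bdf1 minus Null, for Spt3 minus TAF1 and for ChIP pairs, with medians of 0.2131 for TAF1 and 0.0623 for Spt3. It turned the sign of TBP at the second RPL9A region (0.0634), RPL1A (0.1256) and RPL15B (-0.0371), of TAF1 at the first IME1 with RPL43B region (0.0527) and the second RPL9A region (0.0481), of Spt3 at RPL12A (0.2567), MLP2 with RPL40A (0.1552) and RPL15B (-0.1572), of Bdf1 at both IME1 with RPL43B regions (0.0769 and 0.0823), and of the uncalled TBP difference of the RPP1 pair (0.0313).

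With the replicate letter as a block there were 73 RNA calls with a median of -1.7698, the uncalled second RPL22B probe turned sign (0.1103), and there were 1 for TBP, 2 for TAF1, 10 for Spt3 with a median of -0.2487, 3 for Mot1, 6 for Bdf1, 0 for Spt3 minus TAF1 and 16 ChIP pairs. The letters gave no sign of pairing, since same-letter arrays of different groups correlated at a median of -0.035 over 78 pairs, with 9 over 0.1. For single named values, 425 were recomputed, of which 97 lost the threshold, 0 gained it and 14 turned sign. Most of the named values were called in the main fit, so few could have gained it.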
